A study of Mus musculus with 2 samples.

Results

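The miRNAs miR-130a, miR-130b, miR-31, miR-138 and miR-335, named for restraining fat cell formation, were followed on miRNA arrays of C3H10T1/2 cells. They were taken by their names on the array (miR_130a, miR_130b, miR_31, miR_138 and miR_335), 1 probe per name, and are 5 of its 377 probes other than controls. All 5 probes carry a human prefix, and the array holds no other probe for these names or for their opposite strands. C3H10T1/2 is a mesenchymal line of mouse origin from which fat, bone and cartilage cells can be derived. The cells were given BMP7, a secreted growth factor, at 3.3 nM over 3 days, or vehicle over the same 3 days, and the study asked which miRNAs BMP7 regulates. Total RNA labelled with the dye Cy3 was put on 1 array per group. No replicate therefore checks a difference between the groups, p-values are not given, and errors are the spread over the 4 spots of a probe within an array. Total RNA from whole cultures does not separate fewer cells that hold a miRNA from less of it in each cell.

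A miRNA guides silencing proteins to mRNAs that pair with its seed, the bases near its 5′ end, and lowers their stability and translation. Fat cell formation runs through the transcription factors PPARγ and C/EBPα. MiR-130 is known from human preadipocytes to act on PPARγ mRNA, and miR-31 is known from mesenchymal stem cells as a regulator of C/EBPα. MiR-138 is known from human mesenchymal stem cells of fat tissue, where it acts on EID1, a cofactor of nuclear receptors. MiR-335 is known from human mesenchymal stem cells to hold back differentiation, and its mouse gene, Mir335, lies within the span of Mest, an imprinted mesodermal gene. BMP7 itself is known as an inducer of brown fat cells.

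The mature mouse sequences that these array names denote are shown to separate the members that share a seed from those that stand alone. They are RefSeq sequences (GRCm38.p6), 5′ to 3′, with the seed (bases 2 to 8) in capitals. The sources used here give no probe sequences, and a name without an arm is read as the arm that bore it when such arrays were designed.
miR-130a-3p: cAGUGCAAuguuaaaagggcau
miR-130b-3p: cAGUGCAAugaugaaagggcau
miR-301a-3p: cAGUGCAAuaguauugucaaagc
miR-31-5p: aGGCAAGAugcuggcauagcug
miR-138-5p: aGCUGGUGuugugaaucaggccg
miR-335-5p: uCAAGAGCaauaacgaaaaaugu

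MiR-130a and miR-130b share their seed with miR-301a, and 7 mature mouse miRNAs of the RefSeq table hold it. They differ from each other at 2 of 22 bases, U11A and A13G, counted from the 5′ end with the base of miR-130a first, so a probe for either may read the other. The seeds of miR-31, miR-138 and miR-335 were each found in 1 mature mouse miRNA of that table. MiR-130a lies at chr2:84741116-84741137 (minus strand). MiR-130b lies at chr16:17124071-17124092 (minus strand), within the span of 2610318N02Rik and within 5 kb of Mir301b. MiR-31 lies at chr4:88910614-88910635 (minus strand), within the span of the long noncoding RNA gene Gm49890. MiR-335 lies at chr6:30741314-30741336 (plus strand). MiR-138 has 2 genes of equal mature sequence, at chr9:122682898-122682920 and, within the span of Nup93, at chr8:94324312-94324334 (both plus strand), which the array cannot tell apart.

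A spot was counted as passing in the Cy3 channel if its brightness lay 2 SD or more over its local background, the SD being that of all local backgrounds of its array. This came to 947 units of intensity with BMP7 and 1152 with vehicle. Detection took at least 2 passing spots of the 4. Of the 256 mouse miRNAs with 1 probe each, 41 (16%) were detected with BMP7 and 58 (22.7%) with vehicle. On either array 65 (25.4%) of these miRNAs were detected, and 34 on both. Another 65 probes bear names that matched none of the mouse genes, and 7 of those probes (10.8%) were detected on either array. What those 7 read was not tested, so a detection call alone does not show that the named miRNA was present. The local background had a median of 4650 units with BMP7 and 3756 with vehicle, and the laser power reading for the Cy3 channel was 3.17 with BMP7 and 2.45 with vehicle. All 6 mesenchymal marker miRNAs were detected on either array, among them miR-199a, miR-214 and miR-21. Of these, 5 were detected on both arrays, and miR-143 with vehicle only. For other cell types, 1 of 6 markers for blood (miR-223, both arrays) and 1 of 6 for epithelium (miR-141, vehicle only) were detected. None was detected among the 8 for liver, muscle, neuron and endothelium.

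Of the 5 members, 2 were detected with BMP7 and 3 with vehicle. MiR-31 and miR-138 were detected on both arrays, miR-130a with vehicle only, and miR-130b and miR-335 on neither. With 5 members, these shares can be read only loosely against the backgrounds of 16% and 22.7%. Asking for 3 SD, or for 3 of 4 spots, left these calls as they were, while 1 SD also detected miR-130a with BMP7.

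**Figure D1:**
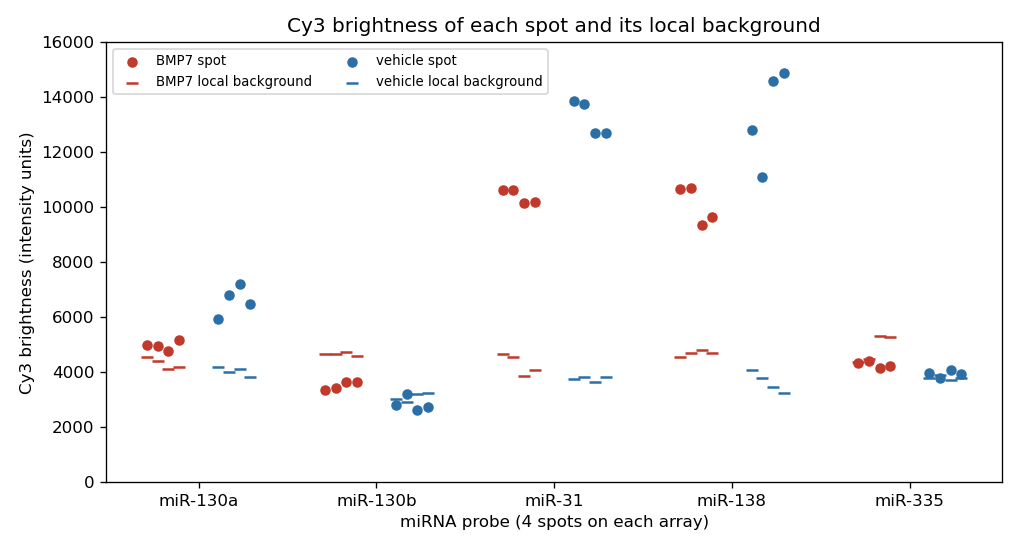
Cy3 brightness of the 4 spots of each member (points, intensity units) and the local background of each spot (dashes), BMP7 in red left of vehicle in blue. MiR-31 and miR-138 stood far above background on both arrays, miR-130a did so with vehicle, and miR-130b and miR-335 lay at or below background, with 1 vehicle spot of miR-130b and 3 of miR-335 slightly above it.

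MiR-130a was lower with BMP7 in every processing of the Cy3 channel that was run. After subtraction of the local background its spots read 452, 565, 676 and 982 units with BMP7, against 1748, 2819, 3081 and 2649 units with vehicle. Only the last BMP7 spot passed, while all 4 vehicle spots did, and no BMP7 spot reached the lowest vehicle spot. After normexp background correction and quantile normalization, the log2 level averaged 11.18 ± 0.16 with BMP7 and 11.84 ± 0.25 with vehicle (SD, n = 4 spots each).

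Since miR-130a was not well above background with BMP7, its change is given as a bound, 1.58-fold lower with BMP7. This bound equals the fitted quantile log2 change (-0.66 ± 0.15, SE over spots). It is not a lower limit over the processings, as the change was -0.49 with no background correction and -0.56 with scaling on the control spots. The bound sets the vehicle mean against the higher of the BMP7 mean and the lowest level among miRNAs detected on the BMP7 array. Every BMP7 spot of miR-130a lay below every vehicle spot, as was so for 15 of the 65 detected miRNAs (23.1%). The direction was the same at all 4 places on the array, with log2 differences from -0.85 to -0.46. A fitted change past 2-fold was reached only with plain subtraction of the background, at -1.32 on the log2 scale with quantile normalization and -1.44 with scaling on the miRNAs detected on both arrays.

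MiR-31 was bright on both arrays, and the sign of its change depended on how the arrays were scaled. Above local background its spots read 5963, 6093, 6282 and 6114 units with BMP7, against 10127, 9912, 9028 and 8869 units with vehicle. Before any scaling the groups did not overlap, and the mean was 1.55-fold lower with BMP7 (6113 ± 131 units with BMP7 against 9484 ± 628 units with vehicle, SD). With quantile normalization the order turned, to log2 levels of 13.21, 13.29, 13.34 and 13.31 with BMP7, against 13.21, 13.19, 13.10 and 13.08 with vehicle.

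In the quantile values the spots of miR-31 met at 13.21, and the log2 change was 0.15 ± 0.04. Of 12 other ways of obtaining the value, 8 put miR-31 below 0 and 4 above, but the 12 are not independent. Median, 75th percentile and control-spot scaling differ from no normalization only by 1 shift common to all probes. Among the 8 is -0.0022 with no background correction. The change was -0.35 with median scaling, -0.19 with cyclic loess and -0.27 when scaled on the Cy3 control spots. It was -0.48 with no normalization between arrays, where the median of the 34 miRNAs detected on both arrays was -0.11, and relative to that median miR-31 was at -0.37. Without normalization between arrays it ranked 8 from the lowest of the 34, and with quantile normalization 22. No direction is given for miR-31.

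MiR-138 was below 0 in all processings run and in the authors' deposited table, by an amount that depended on the scaling. Above local background its spots read 6106, 5989, 4538 and 4932 units with BMP7, against 8743, 7317, 11129 and 11633 units with vehicle. These did not overlap, and the mean was 1.80-fold lower with BMP7 (5391 ± 776 units with BMP7 against 9706 ± 2031 units with vehicle, SD). After quantile normalization the log2 levels were 13.30, 13.23, 12.76 and 12.88 with BMP7, against 13.05, 12.88, 13.29 and 13.34 with vehicle, and the groups overlapped.

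The quantile log2 change of miR-138 was -0.10 ± 0.17, which is smaller than its error over spots. Its value was -0.51 with median scaling, -0.43 when scaled on the Cy3 control spots and -0.64 with no normalization between arrays, or -0.53 relative to the median of the 34 miRNAs detected on both. The 4 places of miR-138 disagreed after quantile normalization. The first 2 neighbouring spots were higher with BMP7, by 0.25 and 0.35 on the log2 scale, and the other pair was at -0.53 and -0.46. Leaving out 1 spot at a time moved the change between -0.18 and -0.00034.

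**Figure D2:**
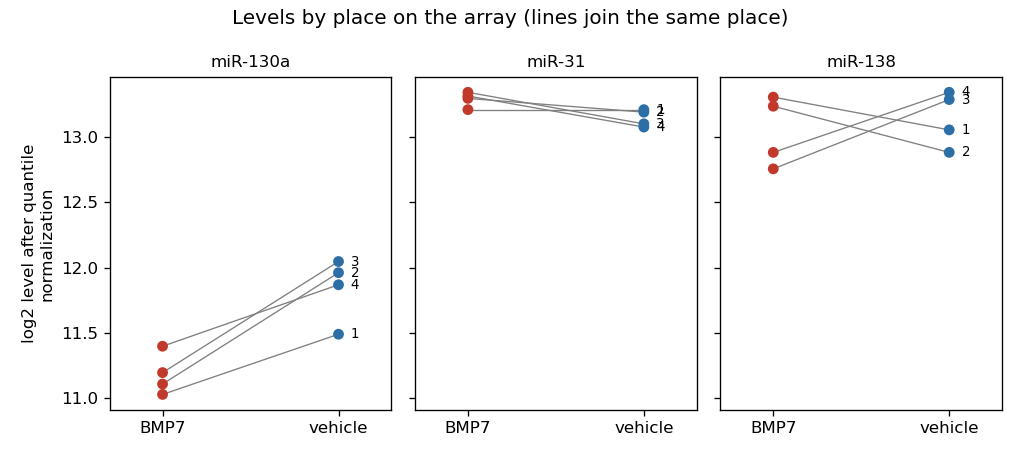
Log2 levels after quantile normalization of the 3 detected members, BMP7 left of vehicle, with lines joining the same place (1 to 4) on both arrays. MiR-130a was lower with BMP7 at every place, miR-31 was equal or higher, and miR-138 was higher at places 1 and 2 and lower at places 3 and 4.

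**Figure D3:**
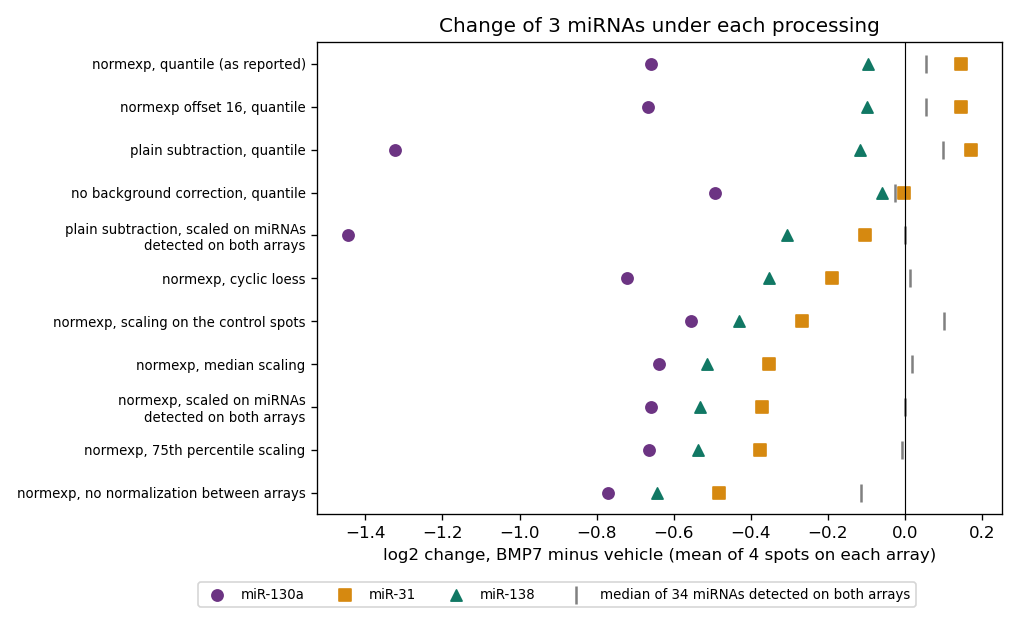
Log2 change, BMP7 minus vehicle, of miR-130a, miR-31 and miR-138 under each background correction and scaling, with the median of the 34 miRNAs detected on both arrays as a grey bar. MiR-130a stayed between -1.44 and -0.49 and miR-138 between -0.64 and -0.06, while miR-31 ran from -0.48 to 0.17.

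By fitted values 0 of the 3 detected members changed by 2-fold or more. Of all 65 detected miRNAs, 3 (4.62%) were past 2-fold on the higher side with BMP7 and 5 (7.69%) on the lower side. For 18.5% of the 65 all BMP7 spots lay above all vehicle spots after quantile normalization, and 0 members were among these. By the closest quantile log2 change among the 65, over 2 arrays only, miR-31 was nearest to miR-181b (0.13) and miR-93 (0.12), and miR-138 to miR-103 (-0.08) and miR-424 (-0.12). MiR-181b and miR-424 were detected on 1 array only. This nearness did not hold without normalization between arrays. There miR-31 was at -0.48, miR-181b at -0.01 and miR-93 at 0.01, and miR-138 was at -0.64, miR-103 at -0.18 and miR-424 at -0.24.

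MiR-130b gave no Cy3 signal above background on either array. Its spots read 3345, 3435, 3634 and 3632 units with BMP7 over local backgrounds of 4595 to 4739, and 2795, 3203, 2639 and 2716 units with vehicle over local backgrounds of 2922 to 3224. Every BMP7 spot lay below its background, as did 3 of 4 vehicle spots, so no fold is given.

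MiR-335 was at background as well. Its spots read 4327, 4420, 4142 and 4208 units with BMP7, against 3972, 3791, 4068 and 3925 units with vehicle. Every BMP7 spot lay below its local background, which was 4374 and 4469 at the first pair of spots and 5323 and 5291 at the other. The vehicle spots lay within 353 units of theirs, and no fold is given.

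The authors' deposited table gives a ratio. It was rebuilt here from spot brightness, background included, as the Cy3 channel over the second channel of the scans, relative to spots named Control_1. The sources used here do not say what the second channel holds. By the authors' deposited table, 4 of the 5 members were higher with BMP7, where 92.6% of its 339 array probes were, with a median log2 fold of 0.54. Division by Control_1, whose ratio was 17.5 with BMP7 and 20.5 with vehicle, adds 0.22 to the log2 fold of every probe.

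MiR-130b stood highest among the members there: the authors' deposited table lists 0.0360 with BMP7 and 0.0154 with vehicle, a 2.33-fold increase that ranks 9 of 339. A fold of at least 2 was listed for 7.67% of the probes. The second-channel brightness of miR-130b was 5578 ± 377 with BMP7 and 9011 ± 439 with vehicle (SD, n = 4 spots each), a ratio of 0.619. Of the 339 probes, 17 had a second-channel ratio (BMP7 over vehicle) as low as this or lower, and the median was 0.909. The Cy3 brightness, which lay below the mean local background on both arrays, had a ratio of 1.24. The listed increase of miR-130b thus goes with a lower brightness in the second channel and with a Cy3 brightness that was not above background.

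MiR-138 was the 1 member listed as lower: the authors' deposited table gives 0.689 with BMP7 and 0.947 with vehicle, 1.38-fold lower, rank 336 of 339 from the top. Of the array probes of that table, 7.37% had a lower ratio with BMP7 than with vehicle. Its ratio of BMP7 over vehicle was 0.755 in the Cy3 channel and 1.22 in the second channel, so both channels moved toward a lower value. MiR-138 was dim in the second channel, at 837 ± 35 units with BMP7 and 689 ± 66 with vehicle.

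MiR-130a and miR-31 were dimmer with BMP7 in both channels, and more so in the second. MiR-130a had a ratio of 0.753 in the Cy3 channel and 0.693 in the second channel, and the authors' deposited table lists it 1.27-fold higher with BMP7. MiR-31 had ratios of 0.785 and 0.702 in the same order, and the authors' deposited table lists it 1.31-fold higher. Against the median of that table they lay at -0.20 and -0.15 on the log2 scale. MiR-335 was listed 1.06-fold higher in the authors' deposited table, or -0.46 on the log2 scale relative to its median.

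**Figure D4:**
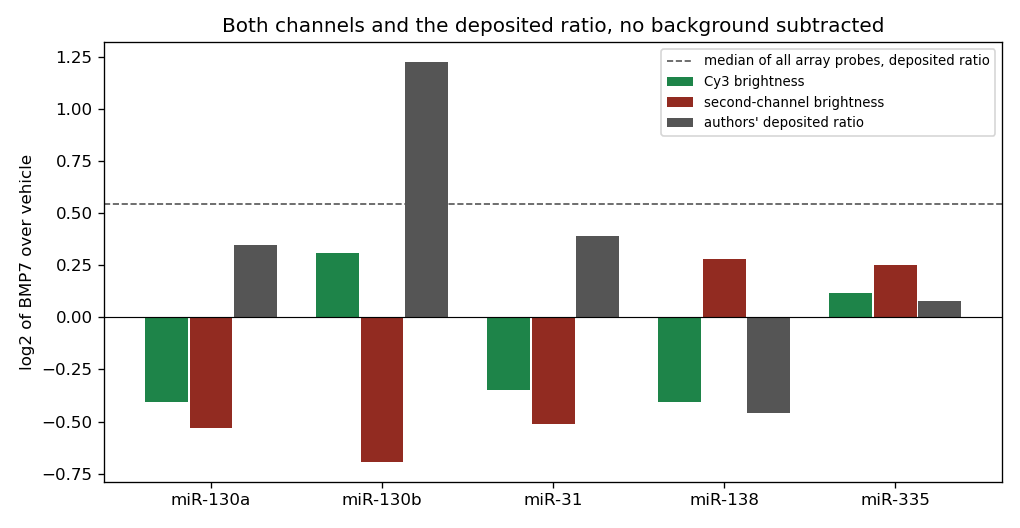
Log2 of BMP7 over vehicle for the Cy3 brightness, the second-channel brightness and the authors' deposited ratio of each member, with the table's median of 0.54 as a dashed line. MiR-130b had the largest deposited value and the lowest second-channel value of the 5, and miR-138 was the member with a negative deposited value.

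Relatives of the miR-130 seed gave little Cy3 signal. Of the 8 probes fixed as sharing that seed or one offset by a base (miR-301, miR-130a, miR-130b, miR-148a, miR-148b, miR-152, miR-19a and miR-19b), only miR-130a was detected. MiR-148a, miR-148b and miR-152 share an offset seed, as do miR-19a and miR-19b, and 1 sequence of each kind is shown.
miR-152-3p: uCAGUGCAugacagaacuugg
miR-19a-3p: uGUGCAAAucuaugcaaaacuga

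MiR-301 holds the lowest fold of the authors' deposited table, rank 339 of 339, at 0.0463 with BMP7 and 0.145 with vehicle, which is 3.13-fold lower. It rests on 1 vehicle spot. In the Cy3 channel the spots of miR-301 read 4031, 4272, 3842 and 4112 units with BMP7, against 14212, 3380, 3332 and 3451 units with vehicle. In the second channel they read 4226, 5467, 4654 and 5988 units with BMP7, against 1442, 5195, 5137 and 4932 units with vehicle. The spot that was bright in the Cy3 channel was the dimmest in the second. Without it the rebuilt fold of miR-301 was 1.42, higher with BMP7, near the table's median fold of 1.46.

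MiR-152 was at the other end of the authors' deposited table, 2.48-fold higher with BMP7 at rank 4, with a lower second-channel brightness, as for miR-130b. Its mean Cy3 brightness was 4182 with BMP7 over a mean background of 4646, and 3130.5 with vehicle over 3016, with no spot passing on either array. Its second-channel brightness was 3769 ± 396 with BMP7 and 5982 ± 449 with vehicle (SD, n = 4 spots each). The other 4 relatives, miR-148a, miR-148b, miR-19a and miR-19b, were listed between 1.24-fold and 1.51-fold higher in the authors' deposited table, with no spot passing.

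A wider list of 26 miRNAs known to restrain adipogenesis, which holds the 5 members, had 25 probes, of which 16 were detected. By quantile values 11 of these were lower and 5 higher with BMP7, with a median log2 change of -0.24. Over all 65 detected miRNAs, 34 (52.3%) were lower and 31 (47.7%) higher, with a median of -0.03. At 2-fold, 2 of the 16 were lower and 1 was higher, beside 5 lower and 3 higher of the 65. The let-7 family, known for accumulating as cells differentiate, gave the 3 lowest values, with let-7e at -1.24 ± 0.09, let-7c at -1.01 ± 0.12 and let-7a at -0.73 ± 0.12. The other detected let-7 members were at -0.51 ± 0.15 (let-7b), -0.29 ± 0.51 (let-7i) and -0.21 ± 0.09 (let-7d), and let-7f and let-7g were not detected. The 10 detected miRNAs of the list outside let-7, which hold miR-130a, miR-31 and miR-138, were 5 lower and 5 higher; this split was made after the values were seen and is a description only.

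On the higher side of that list were miR-22, at 1.15 ± 0.13, and miR-221. The bound for miR-221, detected with BMP7 only, was 1.83-fold higher and equals its fitted quantile change. A list of 21 miRNAs known to promote adipogenesis had 20 probes and 8 detected miRNAs, 5 higher and 3 lower, with a median of 0.16, against the 31 higher and 34 lower of all 65. Its largest increase was that of miR-30a-5p, detected with BMP7 only, with a bound of 1.66-fold that likewise equals the fitted quantile change. None of its 8 reached 2-fold, where 3 higher and 5 lower of the 65 did. In the authors' deposited table the median log2 fold was 0.35 for the detected restraining miRNAs and 0.58 for the detected promoting ones. The first median leaves out let-7e, the lowest of the list by quantile values, which has no deposited value. Over all array probes it was 0.54, a set that also holds undetected probes and so is not a like comparison.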

How the data were processed

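Per the labels' protocols, RNA was extracted with Qiazol, given a poly(A) tail and labelled with Cy3 using the mirVana kit. Per the file headers, the deposited GenePix exports hold the mean intensity of each spot in the Cy3 and the second channel, not normalized and with no background subtracted. Per the file headers, they also hold the sum and ratio of the background-subtracted means of both channels, taken as a score. From these the local background was solved for 1723 of 1728 spots (BMP7) and 1726 (vehicle); the remainder took the median of their block. The 2 deposited tables hold equal ratio values. The sources used here do not give the authors' method; the ratio described in the report was within 0.1% of the deposited value for 336 (BMP7) and 337 (vehicle) of 339 probes.

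The Cy3 intensity was corrected with normexp (offset 50, all spots; limma 3.58.1, R 4.3.3), control spots were removed, arrays were quantile normalized, and log2 values of 4 spots were averaged (Python 3.11.15, pandas 2.3.3). Names were matched to mouse genes of a RefSeq table, and 256 miRNAs were kept. The steps were tested on simulated data drawn from the vehicle array, with the same background on both simulated arrays. The background difference between the real arrays was thus not simulated. Only probes bright with vehicle were changed, past 2-fold and equally up and down, so smaller changes and dim probes were not tested. The exports give no SD of a spot's own background, so the SD over the array was used. With 1 array per group there is no test. Their number limits the precision, and nothing says how many cultures they stand for. Alternatives were other background corrections, scalings, detection limits, single spots left out and the deposited table. Named are the 5 members, all listed seed relatives, from both adipogenesis lists the 3 detected miRNAs of largest increase and of largest decrease, and the 2 closest to each member detected on both arrays. The members, lists and rules were chosen with earlier results of these data known.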

Additional observations from a re-analysis of the deposited data

How the results depend on the processing

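Scaling on the miRNAs detected on both arrays, with normexp or with plain subtraction, and the list without let-7 were added after the data had been seen. No paired analysis was possible because each group has 1 array. The array has no other probe for the members, so that alternative was not run, and the signal stood low over background, which limits detection. For the shifts given next, the cause was not tested.

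MiR-130a was at -1.32 with plain subtraction, -1.44 with that and scaling on the miRNAs detected on both arrays, and 0.35 in the authors' deposited table; single spots left out gave -0.78 to -0.59. MiR-31 was at -0.0022 with no background correction, -0.35 with median scaling, -0.38 with 75th percentile scaling, -0.19 with cyclic loess, -0.27 with scaling on the control spots and -0.48 with no normalization between arrays. Scaling on the miRNAs detected on both arrays gave it -0.37, or -0.10 with plain subtraction, and in the authors' deposited table it was at 0.39; single spots left out gave 0.12 to 0.17. MiR-138 was at -0.51 with median scaling, -0.54 with 75th percentile scaling, -0.64 with no normalization between arrays, -0.53 with scaling on the miRNAs detected on both arrays and -0.46 in the authors' deposited table; single spots left out gave -0.18 to -0.00034.

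The 2-fold counts were 3 higher and 5 lower. They were 0 and 0 with no background correction, 12 and 21 with plain subtraction, 13 and 21 with that and scaling on the miRNAs detected on both arrays, 4 and 3 with scaling on the control spots, and 1 and 6 with no normalization between arrays. They were 15 and 14 over all mouse miRNAs, detected or not. In the authors' deposited values of the detected miRNAs only, they were 2 and 0, which leaves out miR-130b, miR-152 and miR-301. It also leaves out let-7e, which was detected but has no deposited value. Plain subtraction put 1 member, miR-130a, past 2-fold, with either scaling. The median of the restraining list was 0.35 in the authors' deposited table, which has no value for let-7e, and 0.012 without let-7. That of the promoting list was -0.073 with plain subtraction scaled on the miRNAs detected on both arrays, -0.011 over its probes detected or not, and 0.58 in the authors' deposited table. The number of members detected was 3 on the BMP7 array at 1 SD, against 2 as reported, and did not differ elsewhere.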
